A study of Homo sapiens with 6 samples.

Results

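The genes described here are the glycosyltransferases and glycan sulfotransferases of LX-2 cells, the enzymes that start, branch, extend, cap and sulfate the sugar chains of glycoproteins, glycolipids and proteoglycans. They were chosen by symbol alone: protein-coding genes of the deposited table whose symbols belong to the GALNT, MGAT, B3GALT, B4GALT, B3GNT, B4GALNT, sialyltransferase, FUT, XYLT, CSGALNACT, CHSY, CHPF, EXT, NDST, HS2ST, HS3ST, HS6ST, CHST and SULF families. This gave 95 members among 16569 genes. The rule uses no expression value, but it was set with earlier results of these data known. LX-2 is an immortalised human line of hepatic stellate cells, wild type per the labels. All 6 libraries came from cells grown in medium with 2% serum and then kept without serum for 18 h. The control group (3 libraries) then had PBS, and the treated group (3 libraries) had IGFBP-7 protein at 100 ng/mL, both for a further 24 h. There was 1 dose, 1 time point and 1 cell line, and no label says whether replicate libraries were grown separately, so p-values measure only how far these libraries differ, and that spread can be technical.

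Glycan chains have no template: their structure follows from which enzymes meet a substrate in the endoplasmic reticulum and Golgi. GALNT enzymes place the first sugar of mucin-type O-glycans on serine and threonine, MGAT enzymes add the branches of N-glycans, B4GALT and B3GNT enzymes extend chains, and sialyltransferases and fucosyltransferases cap or decorate them. Proteoglycan chains start from a common linker and become chondroitin or dermatan sulfate (CSGALNACT, CHSY and CHPF enzymes, then several CHST enzymes) or heparan sulfate (EXT and EXTL enzymes, then NDST, HS2ST, HS6ST and HS3ST enzymes, with SULF enzymes trimming sulfate outside the cell). In stellate cells, heparan and chondroitin sulfates are carried by matrix and surface proteoglycans that bind growth factors.

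The libraries held 20299671 to 21768983 reads in PBS and 22621471 to 27739942 with IGFBP-7 on the genes of the table, recovered from the normalized values. The limit that a count of 0 allows, 3 sequenced fragments, was 5.08 to 6.41 normalized counts. Across the tested genes, 2 libraries of 1 group correlated at 0.987 to 0.989 and libraries of different groups at 0.952 to 0.954, as a description, since genes are no replicates. Of the 12 stellate and mesenchymal markers in the table, 11 had a mean of at least 10 normalized counts, and DES was at 0 in PBS. Their summed level was 94357 to 97270 in PBS and 259724 to 286264 with IGFBP-7. Most of that rise was COL1A1, at 47543 to 50703 in PBS and 189675 to 207294 with IGFBP-7. COL1A2, COL3A1, ACTA2, PDGFRB, PDGFRA and TAGLN were also higher, THY1, LUM and DCN were lower, and RGS5 overlapped between groups. The fall of DCN did not pass the test described below (limma adjusted p = 0.214). Hepatocyte markers reached a mean of at least 10 in 2 of 8 cases and ALB stayed at 0 to 3.39. Endothelial markers did so in 5 of 6, with a sum of 2469 to 2628 against 2129 to 2178. That sum came mostly from TIE1, at 2261 to 2447 against 1878 to 1959. PECAM1 was higher with IGFBP-7, at 58.9 to 65.9 against 104 to 124. STAB2 and CDH5 were lower, and VWF and KDR overlapped between groups. Macrophage and leukocyte markers reached that mean of 10 in 2 of 7, with a sum of 3226 to 3320 against 1498 to 1731 that came mostly from CD68 and CD14. Epithelial markers did so in 4 of 7, mainly the keratins KRT8 and KRT18, with EPCAM and KRT19 at 0 to 10.2, and their sum was 27497 to 28318 against 37692 to 43785. The part of these marker levels in the results below was not tested.

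Levels below are the authors' normalized counts, as mean ± SD over n = 3 libraries where a single figure is given. Log2 changes are IGFBP-7 minus PBS on the log2(normalized count + 1) scale, with limma's standard error (SE) and a Benjamini-Hochberg adjusted p over all genes tested. A gene was tested when its mean over the 6 libraries was at least 10, and called when the adjusted p was under 0.05.

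Of the 95 members, 74 were tested and 48 were called, 28 higher and 20 lower with IGFBP-7. That is 64.9% of the tested members, beside a background of 60.6% of all 11872 tested genes, of which 31.3% were higher and 29.2% lower. The members' share was thus near the background. Some enzymes of these families are not among the members, such as MGAT1, MGAT2, B4GALT5, ST3GAL4, XYLT2, CSGALNACT2, CHPF and EXT2. Counts by role below therefore cover only part of a step. The median log2 change of the tested members was 0.11, against 0.02 for all tested genes. The groups did not overlap in 49 members (66.2%), against 63.5% of all tested genes. A difference of at least 2-fold was called in 12 members (16.2%, background 11.4%): 9 were higher (12.2%, background 5.05%) and 3 were lower (4.05%, background 6.33%). Scaling to the library total moved the median of all tested genes by -0.14 and gave 22 members higher and 26 lower, so 45.8% of the called members were higher, against 58.3% with the authors' scaling. For all genes that share was 36.8% against 51.7%. No called member changed direction under this scaling. At 2-fold it gave 7 members higher (9.46%, against 4.18% of all tested genes) and 5 lower (6.76%, against 8.36%), as SULF2 and HS3ST3A1 stayed under 2-fold and CHST15 and GALNT3 passed it.

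The largest called rises among members above a mean of 100 were in GALNT16, CHST11, MGAT4C, GALNT10 and SULF2, and the falls of at least 2-fold at that level were in ST3GAL5 and MGAT5B. GALNT16 encodes an enzyme that starts mucin-type O-glycans. It stood at 255, 286 and 263 normalized counts in the PBS libraries and at 1131, 1108 and 1086 with IGFBP-7, a 4.13-fold rise (log2 change 2.05 ± 0.10, limma adjusted p = 7.69e-24). CHST11 encodes a sulfotransferase, among several, that sulfates the N-acetylgalactosamine of chondroitin. It went from 1352, 1189 and 1336 to 4000, 3969 and 3773, a 3.03-fold rise (1.60 ± 0.07, limma adjusted p = 2.64e-27). ST3GAL5 encodes GM3 synthase, which puts the first sialic acid on lactosylceramide and so opens ganglioside synthesis. It went from 1726, 1804 and 1864 to 643, 633 and 605, a 2.86-fold fall (-1.52 ± 0.08, limma adjusted p = 8.20e-23). In each of these genes the groups lay far apart beside the spread within them. In RNA from whole cultures, less RNA per cell and fewer cells carrying it cannot be told apart.

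**Figure D1:**
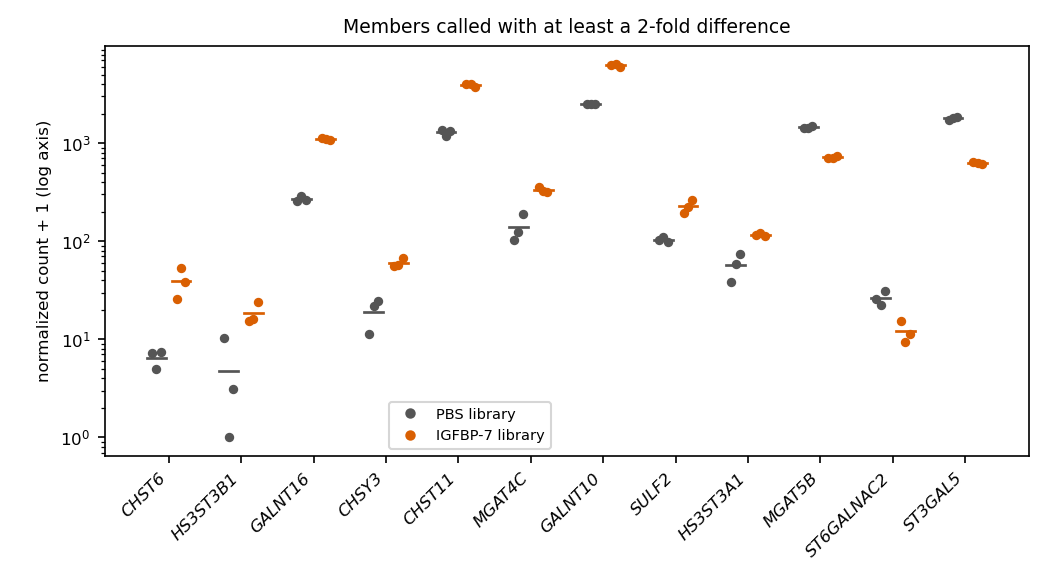
Normalized count + 1 on a log axis in each library (points) with the group mean (lines) for the 12 members called with a difference of at least 2-fold, PBS in grey and IGFBP-7 in orange. The 9 rising genes include CHST6, with PBS values of 3.93 to 6.41, and GALNT10, with 2480 to 2523, and the 3 falling genes are MGAT5B, ST6GALNAC2 and ST3GAL5. In all 12 the points of the groups do not overlap.

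The stretch before the RefSeq start is shown for the 5 members with the smallest adjusted p among those that differed at least 2-fold, so that promoters of rising and falling genes can be set side by side. Each is 250 bases long, 5′ to 3′ on the gene's strand, from RefSeq on GRCh38.p14, with the matches to any of 5 searched motifs in capitals. The motifs, searched on both strands, were CAGACA and its palindromic relative GTCTAGAC (bound by SMAD proteins), TGANTCA (bound by AP-1), GGGCGG (the GC box) and TATAAA. The SMAD motifs share a run of 4 letters, so matches to them can overlap. The intervals are chr14:69259908-69260157, plus strand for GALNT16, chr12:104456698-104456947, plus strand for CHST11, chr5:154190483-154190732, plus strand for GALNT10, chr2:85888991-85889240, minus strand for ST3GAL5 (the first of several listed starts) and chr17:76872397-76872646, plus strand for MGAT5B.
GALNT16: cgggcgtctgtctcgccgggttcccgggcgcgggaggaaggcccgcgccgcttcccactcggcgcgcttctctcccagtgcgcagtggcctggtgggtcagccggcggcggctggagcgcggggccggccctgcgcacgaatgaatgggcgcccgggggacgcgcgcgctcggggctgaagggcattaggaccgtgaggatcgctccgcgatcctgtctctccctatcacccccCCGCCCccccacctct
CHST11: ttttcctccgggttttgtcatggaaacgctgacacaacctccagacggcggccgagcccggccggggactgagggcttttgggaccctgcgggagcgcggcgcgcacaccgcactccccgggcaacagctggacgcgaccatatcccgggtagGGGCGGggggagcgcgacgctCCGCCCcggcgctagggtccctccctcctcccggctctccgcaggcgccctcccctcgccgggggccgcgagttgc
GALNT10: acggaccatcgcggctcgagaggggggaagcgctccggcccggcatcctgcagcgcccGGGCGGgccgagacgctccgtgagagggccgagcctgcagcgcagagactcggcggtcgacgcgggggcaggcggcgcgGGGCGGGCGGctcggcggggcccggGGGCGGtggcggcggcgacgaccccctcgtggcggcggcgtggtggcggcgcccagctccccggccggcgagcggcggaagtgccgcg
ST3GAL5: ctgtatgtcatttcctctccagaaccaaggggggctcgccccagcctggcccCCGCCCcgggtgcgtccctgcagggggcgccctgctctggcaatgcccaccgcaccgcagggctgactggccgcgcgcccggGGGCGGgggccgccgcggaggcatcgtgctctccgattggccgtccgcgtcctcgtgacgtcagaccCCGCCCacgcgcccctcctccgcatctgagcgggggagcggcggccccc
MGAT5B: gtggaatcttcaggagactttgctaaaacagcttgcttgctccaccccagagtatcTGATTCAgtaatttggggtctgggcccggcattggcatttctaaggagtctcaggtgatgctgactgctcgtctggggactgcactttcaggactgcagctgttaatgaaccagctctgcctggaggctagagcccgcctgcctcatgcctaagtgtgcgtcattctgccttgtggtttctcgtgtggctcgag

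RefSeq gave a promoter for 70 of the 95 members, and the first listed start was used for each. A GGGCGG match was present in 66.7% of 24 members that rose, 69.2% of 13 that fell and 75% of 16 that did not pass, against 42.3% of all 27305 promoters of the same length. The median GC content of the 3 sets was 67.2%, 65.6% and 70.6%, against 58% for all promoters. TGANTCA was present in 3 of the 24 rising and 1 of the 13 falling promoters, the latter that of MGAT5B, and in 6.60% of all promoters. CAGACA was present in 1 rising promoter and in no falling one, and in 13.6% of all. GTCTAGAC and TATAAA were in none of these 53 windows, against 0.176% and 11.1% of all. Such matches are letters in a window and describe no binding.

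Mucin-type O-glycan initiation was split, with 5 of 13 tested GALNT genes higher, 3 lower and 5 not passing, and a median log2 change of -0.07. GALNT10 went from 2523, 2480 and 2497 to 6308, 6379 and 5979, a 2.49-fold rise (1.31 ± 0.05, limma adjusted p = 8.37e-27), with no overlap. GALNT1 and GALNT2, broadly expressed members of the family, rose together from 4965 ± 280 to 6938 ± 317 and from 11050 ± 233 to 15272 ± 276, log2 changes of 0.48 ± 0.05 and 0.47 ± 0.04. GALNT3, which is known for glycosylating the phosphate hormone FGF23, went from 382, 402 and 573 to 256, 224 and 229 (-0.91 ± 0.13, limma adjusted p = 7.61e-08). Its PBS replicate 3 was the highest value, and the groups did not overlap. GALNT6 and GALNT7 fell by less, with log2 changes of -0.19 ± 0.06 and -0.28 ± 0.07. GALNT15 rose from 42.3 ± 9.35 to 68.7 ± 16.6 (0.69 ± 0.29, limma adjusted p = 0.0370), a call lost without PBS replicate 1 (limma adjusted p = 0.155), without IGFBP-7 replicate 1 (0.203), with DESeq2 (0.0565), with no filter (0.0852) and under library-total scaling (0.106). GALNT4, GALNT5, GALNT9, GALNT12 and GALNT18 did not pass, with log2 changes of -0.49 to 0.08, and reads of GALNT4 may be shared with the POC1B-GALNT4 readthrough gene. GALNT18 passed as lower without IGFBP-7 replicate 1 (-0.75, limma adjusted p = 0.0162). Under library-total scaling, 4 members of the family were higher and 5 lower.

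N-glycan branching genes fell in 4 of 6 tested cases, with 1 higher, 1 not passing and a median of -0.23. MGAT5B, which encodes a branching enzyme best known from brain and O-mannose glycans, went from 1429, 1441 and 1501 to 704, 709 and 744, a 2.02-fold fall (-1.02 ± 0.08, limma adjusted p = 5.66e-16). MGAT4A and MGAT4B encode enzymes that open a branch on the same mannose arm. They fell from 427 ± 41.1 to 286 ± 20.6 and from 10539 ± 41.5 to 8720 ± 147, log2 changes of -0.58 ± 0.12 and -0.27 ± 0.05. MGAT5, which encodes the enzyme that starts the branch often carrying polylactosamine, fell by 0.19 ± 0.06 on the log2 scale (limma adjusted p = 0.00392), a call lost without PBS replicate 3 (limma adjusted p = 0.0568). MGAT4C, a relative of MGAT4A, moved the other way, from 101, 122 and 189 to 360, 324 and 316 (1.32 ± 0.17, limma adjusted p = 1.73e-09). All its IGFBP-7 values lay above all PBS values, and PBS replicate 3 was the highest of its group. MGAT3, which encodes the enzyme of bisecting N-acetylglucosamine, had 22.7, 1.96 and 7.48 against 2.04, 11.9 and 23.8 and did not pass. FUT8, the core fucosyltransferase of N-glycans, rose from 2797 ± 109 to 3830 ± 147 (0.45 ± 0.06).

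Chain extension genes rose in 4 of 9 tested cases and fell in 1, with 4 not passing and a median of 0.19. The galactosyltransferase genes B4GALT1 and B4GALT2, which build lactosamine, rose from 3005 ± 86.2 to 4312 ± 280 and from 3203 ± 37.4 to 4262 ± 71.4, log2 changes of 0.52 ± 0.06 and 0.41 ± 0.06. B4GALT3 rose by 0.28 ± 0.07 and the polylactosamine enzyme gene B3GNT2 by 0.19 ± 0.07, but under library-total scaling neither passed (limma adjusted p = 0.0819 and 0.572). B3GNT2 was also lost without PBS replicate 2 (limma adjusted p = 0.0509) or IGFBP-7 replicate 1 (0.0665). B4GALT6, which encodes a lactosylceramide synthase, fell from 1046 ± 28.5 to 877 ± 91.5 (-0.26 ± 0.08), and this was lost without IGFBP-7 replicate 3 (limma adjusted p = 0.0614). B3GALT2, B3GALT4, B3GALT9 and B3GNT5, a lacto-series glycolipid gene, did not pass, and B3GALT9 was at 568 ± 46.6 and 568 ± 45.9. The N-acetylgalactosamine capping genes B4GALNT3 and B4GALNT4 did not pass either, with log2 changes of 0.57 ± 0.43 and -0.05 ± 0.16. B3GNTL1, whose symbol the rule takes in but which was placed in no role, had a log2 change of -0.08 ± 0.09 and did not pass.

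Sialyltransferases moved both ways, with 2 of 11 tested genes higher, 5 lower and 4 not passing, and a median of -0.01. ST3GAL1 and ST3GAL2, whose products sialylate the galactose of core O-glycans and glycolipids, rose. ST3GAL1 went from 816, 908 and 905 to 1664, 1580 and 1575 (0.88 ± 0.08, limma adjusted p = 3.52e-14) and ST3GAL2 from 2308 ± 171 to 3030 ± 134 (0.39 ± 0.06), both with no overlap. ST3GAL3 and ST3GAL6, whose products act mainly on lactosamine, fell from 982 ± 67.4 to 670 ± 83.1 (-0.56 ± 0.09) and from 1240 ± 105 to 741 ± 11.7 (-0.74 ± 0.08). ST8SIA6, which encodes an enzyme that links sialic acid to sialic acid, fell from 352 ± 26.1 to 242 ± 33.0 (-0.54 ± 0.13). ST6GALNAC2, an O-glycan sialyltransferase gene, went from 24.7, 21.6 and 29.9 to 14.3, 8.47 and 10.3 (-1.15 ± 0.49, limma adjusted p = 0.0398). This low gene lost its call without any 1 of 5 libraries (PBS replicate 1, 2 or 3, IGFBP-7 replicate 2 or 3; limma adjusted p = 0.0558 to 0.133), with no filter (0.0619) and with the replicate number as a block (0.0501). ST6GAL1 stood at 77.2 ± 20.5 and 77.1 ± 8.26, and ST6GALNAC3, ST6GALNAC4 and ST8SIA4 did not pass.

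Fucosyltransferase genes rose in 4 of 6 tested cases and fell in 1, with a median of 0.34. Besides FUT8, FUT11 rose from 913 ± 59.2 to 1328 ± 91.3 (0.54 ± 0.08). FUT1, which makes the H antigen, went from 88.6, 58.9 and 83.3 to 34.8, 54.2 and 45.5 (-0.77 ± 0.28, limma adjusted p = 0.0148) and lost its call without PBS replicate 1 (limma adjusted p = 0.0759), PBS replicate 3 (0.0562) or IGFBP-7 replicate 1 (0.0769). The rises of FUT4, a Lewis antigen enzyme gene, and FUT10 were small, at 0.26 ± 0.10 and 0.25 ± 0.11. Both were lost without PBS replicate 1 (limma adjusted p = 0.0529 and 0.139), PBS replicate 2 (0.105 and 0.0907), IGFBP-7 replicate 1 (0.152 and 0.0865) or IGFBP-7 replicate 2 (0.0573 and 0.161), and under library-total scaling (0.323 and 0.409), which left 2 of the family higher. FUT10 was lost under edgeR (0.0643), DESeq2 (0.0648), a pseudocount of 5 (0.0510), no filter (0.0602) and the replicate block (0.0535) as well. FUT2 did not pass.

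**Figure D2:**
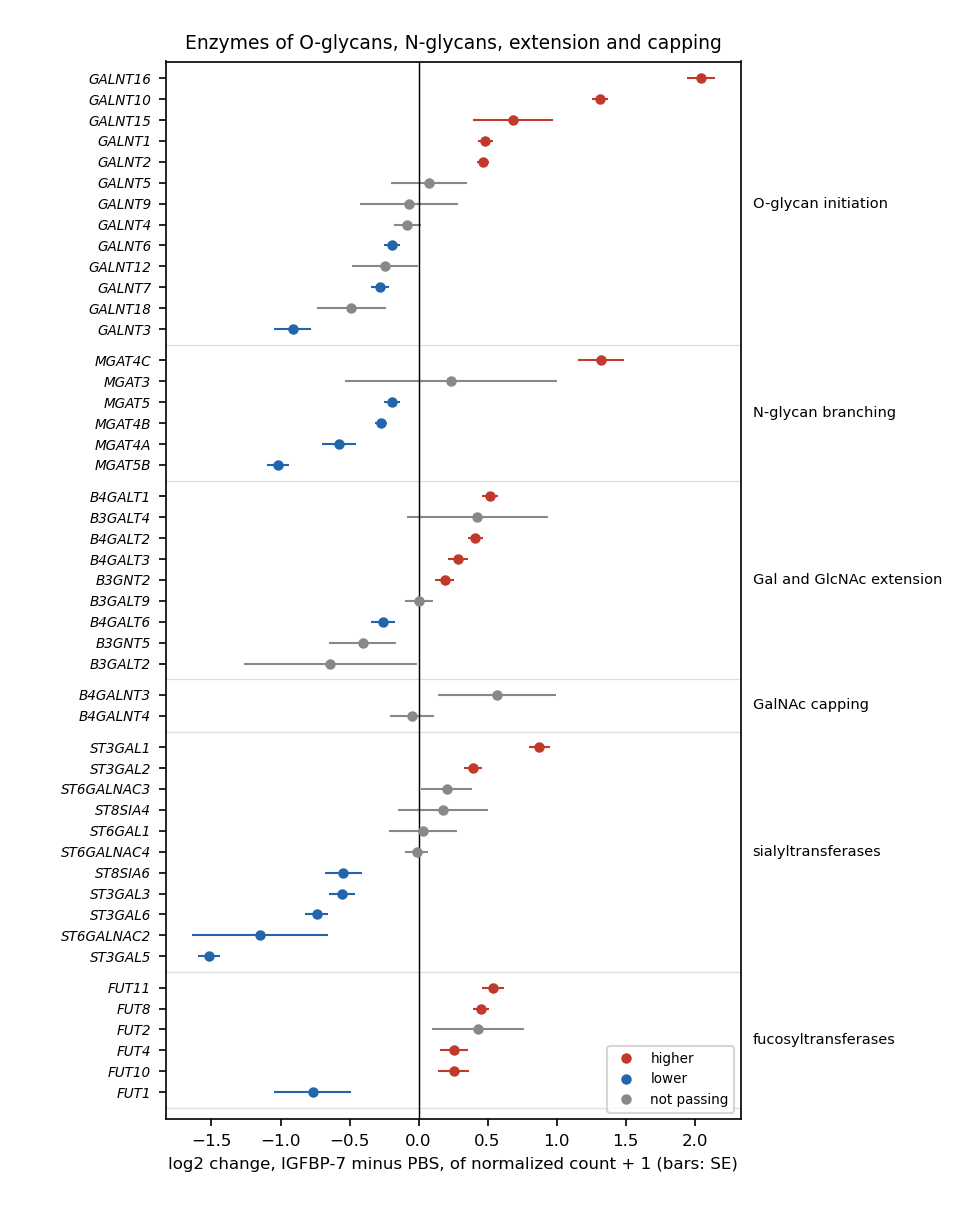
Log2 change (IGFBP-7 minus PBS, normalized count + 1) with its SE for the tested members that start, branch, extend and cap O-glycans, N-glycans and glycolipids, ordered within each role. Red points were called higher, blue points lower and grey points did not pass at an adjusted p of 0.05; GALNT16 lies furthest right and ST3GAL5 furthest left, and most roles hold both colours.

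In the glycosaminoglycan genes, the linker enzymes B4GALT7 and B3GALT6 did not pass, with log2 changes of 0.15 ± 0.08 and 0.14 ± 0.07. Each passed as higher without IGFBP-7 replicate 3 (limma adjusted p = 0.0321 and 0.0190). XYLT1, which encodes a xylosyltransferase that starts the chain, was under the filter, at 0, 0 and 2.14 in PBS and 8.18, 6.77 and 6.20 with IGFBP-7. By counting, 1 fragment and 11, the ratio was 10.3 (95% interval 1.5 to 443).

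The chondroitin polymerising gene CHSY1 went from 3026, 3068 and 3073 to 4624, 4564 and 4349 (0.56 ± 0.06, limma adjusted p = 1.52e-12). Its relative CHSY3 went from 10.3, 20.6 and 23.5 to 55.2, 55.9 and 66.1 (1.72 ± 0.37, limma adjusted p = 7.40e-05). In both of these genes the groups did not overlap. CSGALNACT1, which starts the chondroitin chain, was at 188 ± 15.1 and 158 ± 17.4 and did not pass, though it passed as lower under library-total scaling (limma adjusted p = 0.0412). Of the sulfotransferases, CHST3, which sulfates chondroitin at another carbon than CHST11, rose from 2311, 2160 and 2200 to 3583, 3567 and 3391 (0.66 ± 0.06, limma adjusted p = 9.65e-14). CHST15, which adds a further sulfate to an already sulfated residue, went from 33.0, 49.1 and 42.7 to 34.8, 18.6 and 14.5 (-0.93 ± 0.39, limma adjusted p = 0.0350), with overlapping groups. CHST7, another chondroitin sulfotransferase gene, fell from 379 ± 17 to 313 ± 39.0 (-0.28 ± 0.12, limma adjusted p = 0.0473). Both calls ended without PBS replicate 2 (limma adjusted p = 0.132 and 0.105), PBS replicate 3 (0.0784 and 0.118) or IGFBP-7 replicate 3 (0.151 and 0.266), with no filter (0.0776 and 0.0664) and with quantile normalization (0.0566 and 0.0832). CHST15 also lost it without IGFBP-7 replicate 2 (0.0822) and with DESeq2 (0.0571).

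Heparan chain genes were split. EXT1, a subunit of the heparan polymerase, went from 5308, 4948 and 5810 to 3421, 3311 and 3262 (-0.68 ± 0.06, limma adjusted p = 5.84e-15), with all IGFBP-7 values below all PBS values. EXTL2 rose from 978 ± 44.9 to 1220 ± 49.2 (0.32 ± 0.08), and EXTL1 had a log2 change of -0.24 ± 0.25 and did not pass. Among genes of heparan sulfation and desulfation, 5 of 9 tested were higher, 2 lower and 2 not passing, with a median of 0.28. NDST1, which encodes the enzyme that begins sulfation of the chain, went from 4360, 4277 and 4486 to 7781, 6727 and 6946 (0.71 ± 0.05, limma adjusted p = 2.11e-16). NDST2, its relative, was at 1046 ± 82.9 and 925 ± 59.2 (-0.18 ± 0.08, limma adjusted p = 0.0663) and passed as lower with edgeR (0.0368), DESeq2 (0.0396), quantile normalization (0.0493) and scaling to the library total (0.00107), and without PBS replicate 2 (0.0315).

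HS2ST1, the uronic acid sulfotransferase gene, rose from 3222 ± 159 to 3916 ± 120 (0.28 ± 0.06), and HS6ST1, which sulfates glucosamine, fell from 2885 ± 78.2 to 1964 ± 117 (-0.56 ± 0.06, limma adjusted p = 1.07e-10). HS6ST3 stood at 28.8, 27.5 and 29.9 against 14.3, 18.6 and 14.5, groups that did not overlap, but did not pass (limma adjusted p = 0.0926). HS3ST3A1 and HS3ST3B1 encode enzymes that add a rare sulfate to heparan and have nearly identical catalytic sequence, so reads may be split between them and both values are uncertain. HS3ST3A1 went from 37.1, 57.0 and 73.7 to 113, 120 and 112 (1.08 ± 0.24, limma adjusted p = 0.000157). HS3ST3B1 went from 9.27, 0 and 2.14 to 14.3, 15.2 and 22.7 (2.51 ± 0.80, limma adjusted p = 0.00601), and by counting, 6 fragments in PBS and 27 with IGFBP-7, the ratio was 4.21 (95% interval 1.70 to 12.5). The sulfatase genes SULF1 and SULF2 moved apart. SULF1 went from 187, 179 and 206 to 158, 113 and 121 (-0.56 ± 0.17, limma adjusted p = 0.00522), and SULF2 from 101, 109 and 98.3 to 192, 224 and 261 (1.12 ± 0.18, limma adjusted p = 2.85e-07).

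Of the other carbohydrate sulfotransferase genes, 2 of 5 tested rose, 1 fell and 2 did not pass. CHST6, which sulfates keratan sulfate in the cornea, went from 6.18, 3.93 and 6.41 to 24.5, 52.5 and 37.2 (2.55 ± 0.53, limma adjusted p = 4.74e-05). Its PBS mean of 5.51 lay under the filter value of 10, so this gene too was tested only through its IGFBP-7 level. By counting, 8 fragments in PBS and 61 with IGFBP-7, the ratio was 7.13 (95% interval 3.40 to 17.3). Its sequence is close to that of CHST5, which did not pass, so both are uncertain. CHST2, an N-acetylglucosamine sulfotransferase gene, fell from 1528 ± 30.8 to 1194 ± 52.1 (-0.36 ± 0.07). CHST10, which makes the HNK-1 epitope, rose by 0.23 ± 0.07, but not under library-total scaling (limma adjusted p = 0.237). CHST1 was at 168 ± 9.84 and 144 ± 18.7 and did not pass.

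**Figure D3:**
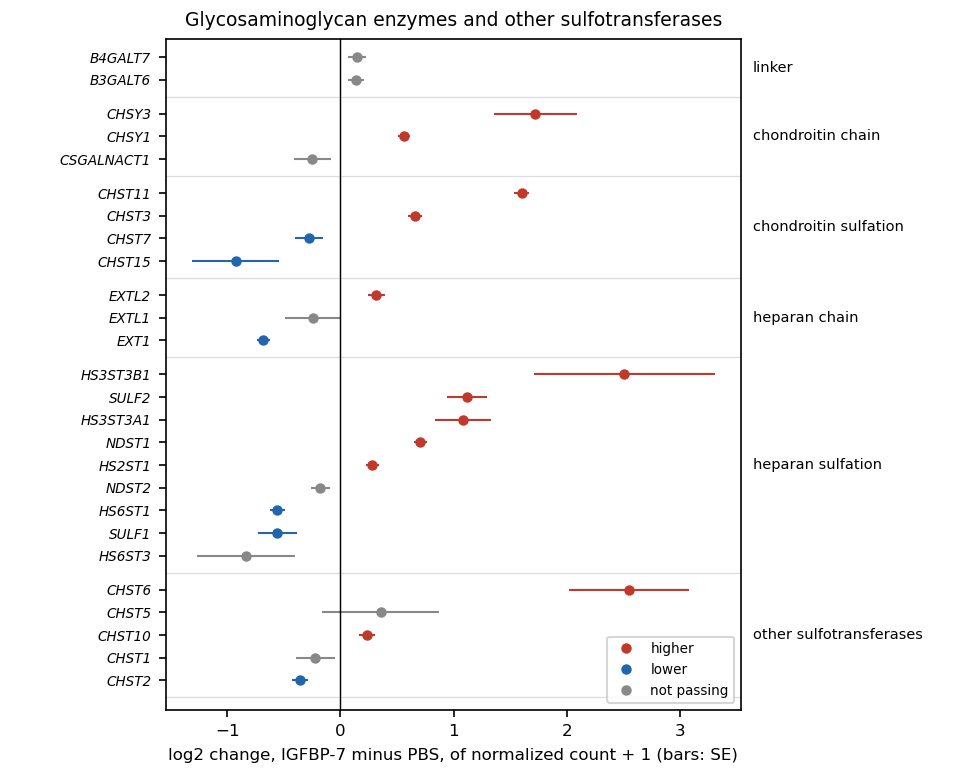
Log2 change (IGFBP-7 minus PBS, normalized count + 1) with its SE for the tested members of glycosaminoglycan synthesis and the other carbohydrate sulfotransferases, coloured red for higher, blue for lower and grey for not passing. Of the chondroitin genes, CHSY1, CHSY3, CHST3 and CHST11 lie to the right of 0 and CHST15, CHST7 and CSGALNACT1 to the left. Of the heparan genes, NDST1, HS2ST1, EXTL2, HS3ST3A1 and HS3ST3B1 lie to the right. EXT1, EXTL1, HS6ST1, HS6ST3 and NDST2 lie to the left, and SULF1 and SULF2 on opposite sides.

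Ratios of 2 members within a library depend on its scaling only through the added count of 1, and 8 of 16 listed pairs had both members tested. The SULF1 to SULF2 ratio was 0.89, 0.71 and 1.06 (log2) in PBS and -0.28, -0.98 and -1.11 with IGFBP-7, a difference of -1.67. These counts are not corrected for gene length, so only the shift is read, and all IGFBP-7 libraries lay below all PBS libraries. The CHST3 to CHST11 log2 ratio went from 0.77, 0.86 and 0.72 to -0.16, -0.15 and -0.15, a difference of -0.94. The NDST1 to NDST2 ratio rose by 0.88, CHST11 to CHST15 by 2.53, while CHSY1 to CHSY3 differed by -1.16 and MGAT4A to MGAT4B by -0.30. In these 6 pairs the groups did not overlap, and each gave p = 0.1 in a two-sided exact permutation test, the smallest that 3 libraries against 3 allow (0.133 after Benjamini-Hochberg adjustment over the 8 pairs). None can therefore pass 0.05. GALNT1 to GALNT2 differed by 0.02 (exact permutation p = 0.9, adjusted 0.9), with overlapping groups, and MGAT3 to MGAT5 by 0.43 (exact permutation p = 0.7, adjusted 0.8).

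**Figure D4:**
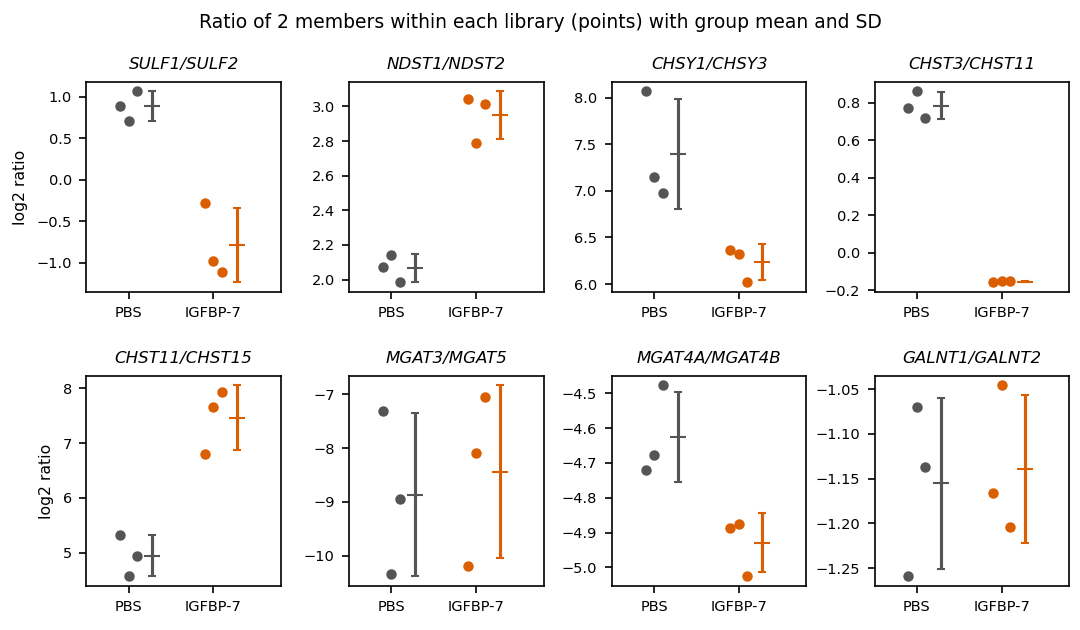
Log2 ratio of the normalized counts (each + 1) of 2 members within each library, points for PBS (grey) and IGFBP-7 (orange) with the group mean and SD beside them, for 8 pairs, each on its own axis. The groups lie apart in 6 pairs (SULF1/SULF2 among them) and overlap for MGAT3/MGAT5 and GALNT1/GALNT2.

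The 21 members under the filter had no value above 31.0, and 11 of them lay at or under that limit of 3 fragments in every library. In 4 of the 21 the groups did not overlap: XYLT1, B3GNT6, B3GALT5 and HS3ST5. The same share over all genes under the filter was not counted, so nothing particular to the members is read from it. B3GNT6, which encodes the enzyme of core-type extension in gut mucins, had 0, 5.89 and 0 against 6.13, 16.9 and 31.0, with 3 fragments against 28 and a ratio of 8.73 (counting interval 2.70 to 44.9). B3GALT5, which makes Lewis-type chains, had 14.4, 13.7 and 18.2 against 2.04, 1.69 and 4.13, 22 fragments against 4. HS3ST5, another heparan sulfotransferase gene, had 16.5, 20.6 and 10.7 against 2.04, 2.54 and 0, 24 fragments against 2 and a ratio of 12.8 (counting interval 3.18 to 112). The others, among them MGAT4D, FUT6, FUT7, GALNT8, NDST3, NDST4, ST8SIA1, ST8SIA5, CHST4 and CHST13, overlapped between groups.

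Genes that feed, follow or undo these enzymes were counted from lists set by role. Not all listed genes are in the table. It held 20 of 29 in the supply list, 5 of 9 in the linker list and 16 of 22 for degradation. For other O-glycan and glycolipid enzymes it held 23 of 28, for N-glycan precursors 15 of 27 and for proteoglycan cores 27 of 34. Sulfate donor and sugar nucleotide supply had 20 tested genes, of which 14 were called higher, 4 lower and 2 neither (median log2 change 0.26). GFPT2, which encodes an entry enzyme of the hexosamine pathway, rose from 3635 ± 162 to 8573 ± 322, SLC26A2, a sulfate transporter gene, from 1611 ± 141 to 2767 ± 178 and GNPNAT1, of the same hexosamine pathway, from 3299 ± 159 to 5589 ± 226. FCSK, the fucokinase gene, fell from 333 ± 10.8 to 210 ± 17.5. Under library-total scaling 8 of these genes were called higher and 5 lower. Of 5 linker and uronic acid enzymes, 3 rose, 1 fell and 1 did not pass. DSE, the epimerase gene that turns chondroitin into dermatan sulfate, rose from 7802 ± 274 to 12967 ± 564, its relative DSEL by 0.39 ± 0.07 and the xylose kinase gene FAM20B by 0.46 ± 0.06. The lower call was the sulfotransferase gene UST (-0.25 ± 0.10, limma adjusted p = 0.0288), and it was lost without PBS replicate 2 (limma adjusted p = 0.0690), PBS replicate 3 (0.0776), IGFBP-7 replicate 1 (0.0750) or IGFBP-7 replicate 3 (0.0680).

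Of 16 tested genes of glycan degradation, 13 fell, 2 rose and 1 was called neither way (median -0.30). HPSE, which encodes the heparan-cleaving enzyme heparanase, fell from 701 ± 27.3 to 278 ± 47.4, the lysosomal sulfatase gene SGSH from 2962 ± 142 to 1563 ± 92.7 and FUCA1, a fucosidase gene, from 1586 ± 119 to 916 ± 27.9. Of 22 other O-glycan, glycolipid and protein O-glycosylation genes, 7 were called higher, 12 lower and 3 neither (median -0.24). UGCG, which encodes the glucosylceramide synthase upstream of ST3GAL5, fell from 7301 ± 93.8 to 2668 ± 122 (-1.45 ± 0.05, limma adjusted p = 5.34e-29). A4GALT, the globoside enzyme gene that uses the same lactosylceramide, fell from 276 ± 18.0 to 120 ± 10.8. LFNG, the Fringe enzyme gene of Notch receptors, rose from 309 ± 4.98 to 823 ± 42.7, and POMT2 rose by 0.88 ± 0.07.

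N-glycan precursor transfer and trimming genes rose in 9 of 15 tested cases and fell in 2, with 4 not passing and a median of 0.25. The oligosaccharyltransferase subunit gene RPN1 rose by 0.32 ± 0.04 and MAN1A2 by 0.31 ± 0.06, while the mannosidase genes MAN1C1 and MAN2A2 fell, with log2 changes of -0.60 ± 0.08 and -0.47 ± 0.05. Under library-total scaling the calls were 4 higher and 3 lower. Of 21 tested proteoglycan core genes, 6 were called higher, 11 lower and 4 neither (median -0.28). BGN, the biglycan gene, rose from 142 ± 10.9 to 752 ± 76.3 and the glypican gene GPC6 from 235 ± 20.2 to 904 ± 62.7. The betaglycan gene TGFBR3 fell from 879 ± 40.7 to 237 ± 8.41 and PRELP from 31.5 ± 4.98 to 4.04 ± 1.94. PRELP was tested only through its PBS level. Beside 60.6% of all tested genes, the called share was 73.3% in the N-glycan precursor list, 80.0% in the linker list, 81.0% in the core list, 86.4% in the list of other O-glycan and glycolipid enzymes, 90.0% in the supply list and 93.8% in the degradation list. These lists were drawn up with earlier results of the series known, and nothing particular to them is read from these counts.

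**Figure D5:**
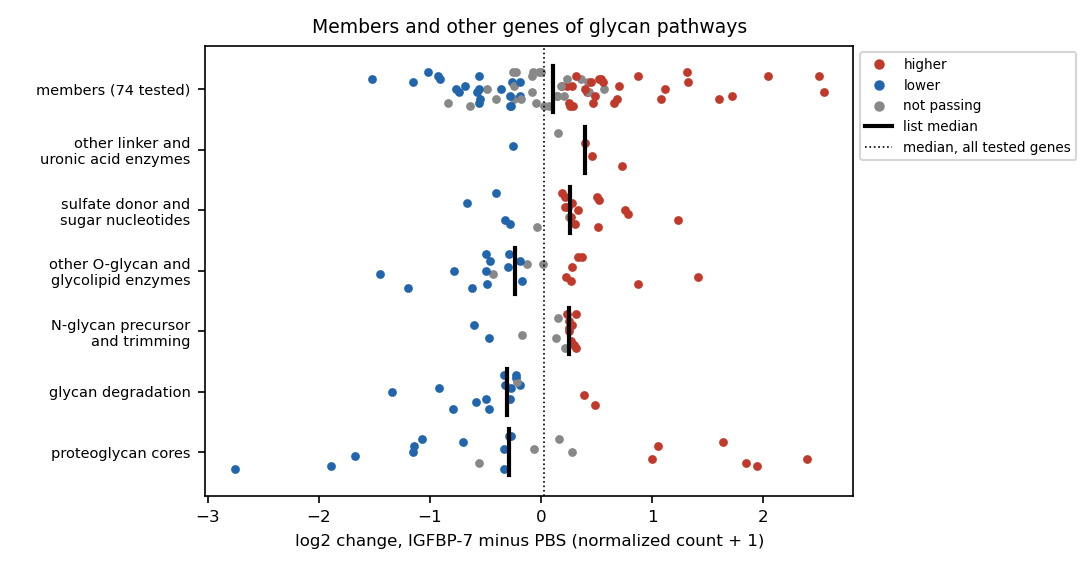
Log2 change (IGFBP-7 minus PBS, normalized count + 1) of each tested member and of the tested genes of 6 pathway lists, 1 row each, coloured by call, with the median of each list as a black bar and that of all tested genes as a dotted line at 0.02. The degradation row lies mostly to the left of the line, with a median of -0.30, and the supply row mostly to the right, with a median of 0.26.

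Several members share exons with another gene of the table in GENCODE release 29, which holds all 95 members. Whether reads were counted by strand is not stated in the labels, so values of SULF2 (with NCOA3), ST3GAL6 (DCBLD2), MGAT4B (SQSTM1), GALNT6 (SLC4A8), B3GNTL1 (TBCD), B3GNT5 (MCF2L2), FUT8, NDST1 and B4GALT1 (each with its antisense gene) and GALNT7 are uncertain to that extent. NCOA3 averaged 4260 normalized counts and DCBLD2 16045 over the 6 libraries. GALNT10 (with MFAP3), FUT10 (TTI2) and FUT4 (PIWIL4) share exons on the same strand. Some members share exons with genes that have no row in the table. Among these are B3GALT9 (FBXW2), B4GALT3 (PPOX) and B3GALT2 (CDC73), each on the opposite strand, and their values are uncertain in the same way.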

How the data were processed

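RNA sequencing measured poly(A) RNA of 3 PBS and 3 IGFBP-7 libraries, grouped by sample title. The authors deposited normalized counts, a signal on a linear scale. The values themselves, not a header, show that each is a read count times 1 factor per library. STAR, Subread, featureCounts and DESeq2 are named per the submitters' processing notes. The sources used here give no genome build, annotation or strand setting. For symbols with 1 Ensembl identifier, 100% of values were whole multiples of 1 step within 0.01, taken as 1 read. Over all symbols 99.6% to 99.7% were, since 174 symbols join several identifiers and hold fractions, which were rounded. Of counts from 1 to 20 reads, 75.6% to 78.1% were even, so 2 reads were taken as 1 fragment and the floor of 3 fragments as 6 reads. Counting error is all that the intervals and this floor cover.

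limma-trend (limma 3.58.1, R 4.3.3) on log2(normalized count + 1) was fitted to all 11872 genes with a mean of at least 10, two-sided, without covariates, with Benjamini-Hochberg adjustment. Alternatives were pseudocounts of 0.5 and 5, no filter and a filter at 100, scaling to the library total over the genes of the table, quantile normalization, edgeR 4.0.16 and DESeq2 1.42.0 on recovered reads, the replicate number as a block, and leaving out each library. On simulated counts for these 11872 genes, of which 200 were changed, the fit recovered 56.7%, 83.6% and 97.0% of those changed 1.5-, 2- and 4-fold. It made 5 false calls among 11672 unchanged genes. In the data 60.6% of tested genes were called, a far larger share than was changed there. These rates therefore check that the fit runs properly and do not carry over to the calls above. Replicate libraries had chi-square per degree of freedom of 5.26 to 7.23 over genes, computed on reads. As 2 reads were taken as 1 fragment, counting error alone would lie above 1 on this measure. No libraries were merged, and these values cannot show whether replicates were grown separately. Per-sample columns left unused numbered 0.

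Members and lists were chosen with earlier results of these data known. Every member may be named. Values in every library are given for those called with at least a 2-fold difference, and for others chosen after their values were seen. Pathway genes are named at most 4 per list, those called with the largest change. Marker genes and genes that overlap a member, chosen after their values were seen, are named outside that rule. The values of 1 gene that this rule names are not reported here. No set test was run.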

Additional observations from a re-analysis of the deposited data

How the results depend on the processing

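The number of tested members higher with IGFBP-7 was 28 and stayed between 22 and 28 under the other settings, and between 24 and 30 with 1 library left out. The number lower was 20, with ranges of 17 to 26 and 15 to 20. Of the 48 called members, 36 kept their call under every setting they entered, and 12 lost it under at least 1. Losses numbered 6 under library-total scaling, 5 with no filter, 3 with DESeq2, and 2 each with quantile normalization and the replicate block. With edgeR and with a pseudocount of 5, 1 call each was lost. Leaving out 1 library lost 4 to 6 calls, and FUT1, B4GALT6 and MGAT5 were lost only in this way. No called member changed sign. Under library-total scaling 6 members that had not passed were called lower: B3GNT5, B3GNTL1, CSGALNACT1, GALNT4, GALNT18 and NDST2. Scaling to the library total gave 2435 against 3721 for all tested genes higher with IGFBP-7, and leaving out 1 library gave 3403 to 3605. All tested genes lower with IGFBP-7 numbered 3471, against 4176 under library-total scaling and 3180 to 3299 with 1 library left out.

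With no filter, the untested members B3GALT5 and HS3ST5 passed as lower and B3GNT6 and XYLT1 as higher (limma adjusted p = 0.00340, 0.000604, 0.00114 and 0.00491). With 1 library left out, the difference in the within-library log2 ratio MGAT3/MGAT5 ranged from -0.31 to 1.31, being -0.31 without PBS replicate 2 and -0.27 without IGFBP-7 replicate 3. That of the within-library log2 ratio GALNT1/GALNT2 ranged from -0.035 to 0.059, being -0.035 without PBS replicate 1 and -0.030 without IGFBP-7 replicate 2. Neither was a called difference. The other 6 ratios kept their sign. Of the 16 listed pairs, 8 were not run because a member was untested or not in the table.

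Same-numbered libraries did not deviate together (correlations of deviations of -0.049 to 0.012 over the tested genes, against up to 0.072 for other pairs). No shared effect of the number was thus seen, but no label says whether same-numbered libraries were handled together. With the replicate block 27 members were higher and 19 lower, FUT10 and ST6GALNAC2 being the calls lost, and 3715 and 3462 of all tested genes were. Members under about 10 normalized counts cannot be compared at this depth beyond the counting intervals given.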
